A study of Mus musculus with 6 samples.

Results

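The splicing factor families are genes for proteins that find splice sites or build the spliceosome. They were taken by symbol from the deposited table: names starting with Srsf, Hnrnp, Snrp, Sf3a or Sf3b, U2af or Prpf, without Snrpn and without 5 symbols marked as pseudogenes. This gave 68 of the 55401 genes in the table: 11 Srsf, 20 Hnrnp, 12 Snrp, 9 Sf3, 3 U2af and 13 Prpf genes. In GENCODE M21, 67 of them are protein-coding, while Snrpert, counted in the Snrp family, is a processed pseudogene. Snrpert made up 8.09% to 8.70% of the summed FPKM of that family in SSCs and 9.43% to 10.7% in iNSCs. All 68 were tested, and the lowest count of any member in a library was 22. Messenger RNA of male mouse cells was sequenced in 6 libraries, 3 of spermatogonial stem cells (SSCs) and 3 of neural stem cell-like cells (iNSCs) made from such cells. The SSCs came from testes of 6-day-old mice and grew on inactivated STO fibroblast feeders in 10% serum with LIF (10 ng/mL), EGF (20 ng/mL), bFGF (10 ng/mL) and GDNF (20 ng/mL). The iNSCs had been on laminin, with retinoic acid (1 µM, 24 h) and then N2, B27, SB431542 (10 µM, a blocker of TGF-beta type I receptors), bFGF (20 ng/mL) and 1% serum, and were taken after 6 days of transdifferentiation. The labels name neither the strain nor separate cultures for the replicates, and the p-values below therefore cover only the spread among these libraries, which may be technical.

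Splicing removes introns from pre-mRNA. U1 snRNP marks the 5′ splice site, U2AF reads the polypyrimidine tract and AG at the 3′ end, and U2 snRNP settles on the branch point with the help of SF3a and SF3b. The U4/U6.U5 tri-snRNP, in which several PRPF proteins sit, then joins to form the catalytic core. SR proteins mostly favour the use of exons they bind, and many hnRNP proteins oppose it, so the balance of both families shapes alternative splicing. Gene counts measure how much mRNA each factor has, not which isoform it forms and not splicing itself.

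Libraries held 18058551 to 20156067 counts. Correlations of log2 library-scaled counts across genes were 0.953 to 0.977 among SSCs, 0.991 among iNSCs and 0.702 to 0.754 between groups. Groups were taken from the titles, since the cell type field of all 6 samples gives the other group. All 10 listed germ cell markers fell in iNSCs, with summed levels of 824 to 874 FPKM in SSCs and 16 to 22.1 FPKM in iNSCs. FPKM is the read count scaled by exonic length and library total. Of the 8 tested neural stem cell markers, 3 rose and 5 fell. The filament gene Nes had 95.8 to 104 FPKM in iNSCs, whereas Sox2, a defining factor of neural stem cells, had 0 to 0.0500 FPKM there. Of 10 epithelial markers 9 rose, from sums of 154 to 252 FPKM to 3200 to 3810 FPKM. Markers of other cells were found at different levels. The 12 fibroblast markers summed to 928, 803 and 89.3 FPKM in SSCs replicates 1, 2 and 3 and to 325 to 392 FPKM in iNSCs (4 rose, 2 fell). The 10 Sertoli cell markers summed to 96.1 to 413 FPKM in SSCs and 767 to 952 FPKM in iNSCs (7 rose, 1 fell). Of 8 macrophage markers 5 were tested, and 2 rose and 0 fell. The 8 summed to 11.8 to 41.3 FPKM in SSCs and 102 to 131 FPKM in iNSCs. C1qa was at 0 in all iNSCs and Ptprc at 0.150 to 0.210 FPKM, so the sum in iNSCs came almost wholly from other markers of the list. Whether other cells or the SSCs and iNSCs themselves made these RNAs was not tested, nor was the part of other cells in the results below. In bulk RNA fewer cells of a type cannot be told apart from less RNA per cell.

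Several members have near-identical copies elsewhere in the genome, and the sequences are shown because they decide which of the values below can be trusted. The sources do not say how reads with more than 1 match were treated. The coding sequence of Snrpg, the Sm protein G gene (ENSMUSG00000057278, GRCm38 chromosome 6, 86371304 to 86379328, plus strand), had 0 differences over 228 bases from the processed pseudogene Gm8186 on chromosome 17, so only the flanking parts of the transcript can tell them apart. The pseudogene held 6672 counts over the SSC libraries against 1049 for Snrpg itself. For Hnrnpa3 (ENSMUSG00000059005, chromosome 2, 75659261 to 75669407, plus strand) and its copy Gm6793, 240 coding bases from position 69 are given, 5′ to 3′, with the 1 differing base in capitals. Over the whole aligned stretch of 1069 bases the identity was 97.8%, with 6 mismatches and 2 gaps. All sequences here are from GENCODE M21 transcripts.
Snrpg and Gm8186: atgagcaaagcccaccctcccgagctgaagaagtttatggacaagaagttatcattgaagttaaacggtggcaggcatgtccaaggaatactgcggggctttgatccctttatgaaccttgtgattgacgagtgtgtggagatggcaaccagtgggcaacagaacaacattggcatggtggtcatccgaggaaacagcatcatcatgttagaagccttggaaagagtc
Hnrnpa3: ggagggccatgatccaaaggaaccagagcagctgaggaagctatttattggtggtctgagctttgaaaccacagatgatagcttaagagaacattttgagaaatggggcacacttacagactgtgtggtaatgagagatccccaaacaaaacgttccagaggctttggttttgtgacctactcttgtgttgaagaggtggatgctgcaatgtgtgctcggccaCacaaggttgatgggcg
Gm6793: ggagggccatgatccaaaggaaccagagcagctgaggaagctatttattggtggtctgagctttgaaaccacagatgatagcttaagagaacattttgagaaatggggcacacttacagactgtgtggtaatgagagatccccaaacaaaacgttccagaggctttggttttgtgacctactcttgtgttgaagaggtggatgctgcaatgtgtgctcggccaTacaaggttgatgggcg

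The splicing factor mRNAs were lower in iNSCs as a set. All members together made up 1.23%, 1.30% and 1.45% of the summed FPKM in SSCs replicates 1, 2 and 3 and 0.693%, 0.684% and 0.682% in iNSCs replicates 1, 2 and 3. Every SSC library lay above every iNSC library, and the mean share was 1.93 times higher in SSCs (1.33% ± 0.112 against 0.686% ± 0.00571, SD, n = 3 each). A two-sided exact permutation test gave p = 0.1, the smallest that 3 against 3 libraries allow. The Snrp genes had the widest gap, 0.287% ± 0.0219 against 0.117% ± 0.00335, a ratio of 2.46, and the Hnrnp genes the narrowest, 0.514% ± 0.0441 against 0.299% ± 0.00349, a ratio of 1.72. The ratio was 2.16 for Sf3, 1.92 for Srsf, 1.80 for Prpf and 1.78 for U2af, each with groups that did not overlap and an exact permutation p of 0.1.

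Gene by gene, a member was said to have risen or fallen where its log2 difference reached 1 in size and its adjusted p was under 0.05 (edgeR quasi-likelihood test with TMM scaling, Benjamini-Hochberg over 17387 genes, iNSCs minus SSCs). By this rule 18 of 68 members fell, or 26.5%, beside 27.6% of all tested genes, and 1 rose, or 1.47%, beside 25.7%. The share that fell is thus near that of all genes. By the adjusted p alone, 50 members were lower (73.5%, beside 38.3% of all genes) and 3 were higher (4.41%, beside 35.6%). Among the 7116 tested genes with a mean of at least 10 FPKM in a group, 39.6% were lower and 40.9% higher by the adjusted p alone, against 47 and 2 of the 59 members at that level. With the size threshold as well, 22.9% of those genes fell and 27.0% rose, against 27.1% of the 59 members (16) that fell. Of these 59, Hnrnpa3 was not one. FPKM of the iNSCs lay wholly below that of the SSCs for 59 members (46.4% of all genes) and wholly above for 3 (33.0%). With TMM-scaled counts these numbers were 54 (40.5%) and 4 (38.8%).

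The median log2 difference of the members was -0.68, beside -0.05 over all tested genes. The middle 80% of members ran from -1.35 to 0.11, and that of all tested genes from -3.03 to 2.48. In all, 49 members changed by less than a log2 difference of 1 either way. With library totals in place of TMM, the difference of a gene moved by a median of -0.25, the member median to -0.93 and the number of members with a negative difference from 58 to 65. Relative to the median of all genes, which was then -0.30, the members stayed lower. By family the median was -1.0 for Snrp, -0.89 for U2af, -0.78 for Srsf, -0.70 for Sf3 and -0.57 for both Hnrnp and Prpf.

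**Figure D1:**
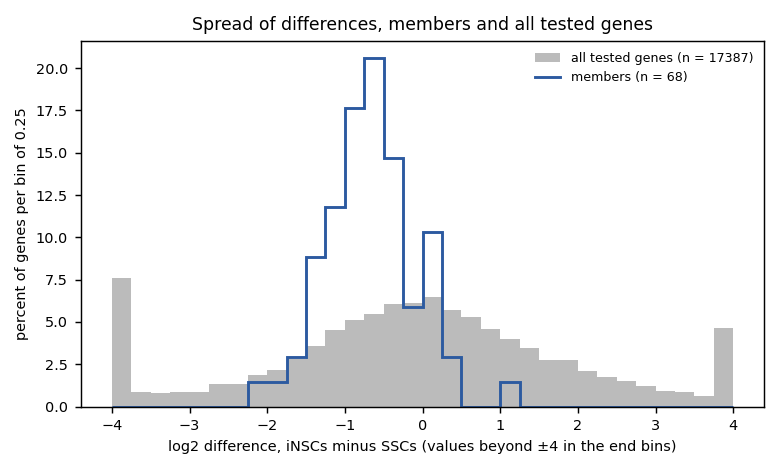
Share of genes (percent per bin of 0.25, vertical axis) against the log2 difference of iNSCs minus SSCs (horizontal axis) for all 17387 tested genes, filled in grey, and the 68 members, as a blue outline; values beyond 4 either way are in the end bins. The members form a narrow peak left of 0, around their median of -0.68, and lack the wide tails of all genes.

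**Figure D2:**
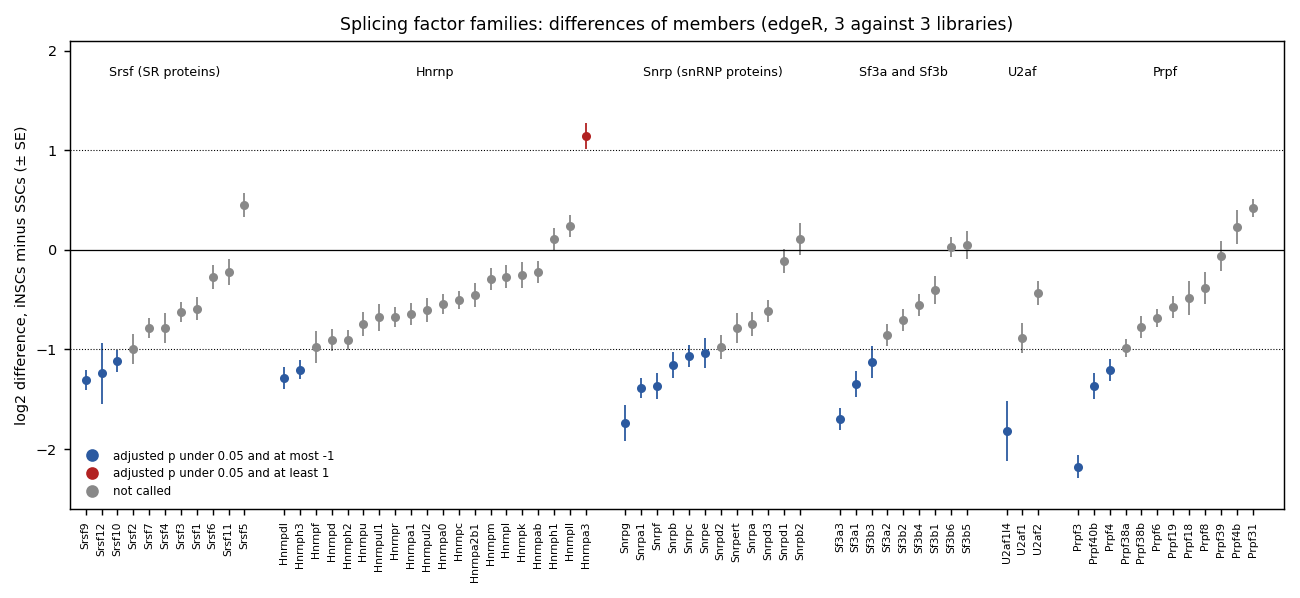
Log2 difference of iNSCs minus SSCs with its standard error (vertical axis) for 67 of the 68 members, grouped by family and ordered by size (horizontal axis). Blue points fell (18), the red point (Hnrnpa3) rose, grey points were not called, and dotted lines mark -1 and 1.

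The libraries were not alike within the SSCs. Of the 68 members, 43 had their highest SSC level in replicate 3 by FPKM and 56 by TMM-scaled counts. The same count was not made over all tested genes, so it cannot be called particular to the members. Replicate 3 is also the library with the low fibroblast sum and, at 1250 FPKM, the highest sum of 16 proliferation genes among the SSCs (984 and 1070 FPKM in replicates 1 and 2). The median coefficient of variation of a member was 8.10% among SSCs and 4.0% among iNSCs by FPKM. Without SSCs replicate 3, 19 members fell and the member median was -0.64.

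The first step of intron recognition rests on U1 and U2. Both U1 proteins in the set were lower: Snrpa, which binds a loop of U1 RNA, had 72.2, 71.4 and 82.2 FPKM in SSCs replicates 1 to 3 and 36.4, 37.7 and 39.2 FPKM in iNSCs (log2 -0.75, SE 0.12, edgeR adjusted p = 7.7e-04, short of the size threshold). Snrpc, which steadies U1 on the 5′ splice site, fell from 26.5 ± 1.99 to 10.6 ± 0.232 FPKM (log2 -1.07, SE 0.11). The U1-associated Prpf40b had 21.6, 19.0 and 14.8 FPKM in SSCs and 5.87, 6.17 and 5.88 FPKM in iNSCs. It fell (log2 -1.37, SE 0.13, adjusted p = 7.5e-05), and its lowest SSC library, replicate 3, was still far above every iNSC library. Prpf39, another U1-associated protein, had 3.16 to 3.73 FPKM and 2.39 to 3.09 FPKM (log2 -0.06).

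The 2 U2-specific RNA-binding proteins parted. Snrpa1, the U2 A-prime protein, had 25.1, 23.8 and 24.1 FPKM in SSCs and 7.98, 7.68 and 7.79 FPKM in iNSCs and fell (log2 -1.38, SE 0.10, adjusted p = 1.8e-05). Its partner Snrpb2, the U2 B-double-prime protein, had 8.58, 6.18 and 7.97 FPKM against 7.13, 6.95 and 6.48 FPKM, with overlapping groups (log2 0.11, SE 0.16, adjusted p = 0.551, and -0.15 with library totals). The ratio of Snrpa1 to Snrpb2, which needs no scaling between libraries, went from 3.27 to 1.14 on average.

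All 3 subunits of SF3a were lower, and 2 of them fell. Sf3a3 (ENSMUSG00000028902, chromosome 4, 124714776 to 124732460, plus strand) had the largest change of the Sf3 family: 85.7, 80.7 and 94.4 FPKM in SSCs against 23.1, 22.5 and 22.1 FPKM in iNSCs (log2 -1.69, SE 0.11, adjusted p = 1.5e-05). Both groups were narrow and far apart. Sf3a1 had 44.2, 51.6 and 55.0 FPKM against 16.9, 16.9 and 16.2 FPKM (log2 -1.34, SE 0.13, adjusted p = 8.0e-05). Sf3a2 went from 32.4 ± 1.72 to 15 ± 0.701 FPKM (log2 -0.86, SE 0.11) and was not called. Plekhj1 on the other strand shares 16.1% of the exonic bases of Sf3a2. Without strand, reads in that shared part cannot be told apart.

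SF3b was less uniform. Its scaffold gene Sf3b3 had 52.0, 62.8 and 72.1 FPKM in SSCs and 24.9, 24.0 and 23.4 FPKM in iNSCs and fell (log2 -1.12, SE 0.16, adjusted p = 4.9e-04), but the difference was -0.98, short of the size threshold, without SSCs replicate 3. Sf3b1, the subunit that holds the branch site and a frequent target of mutation in human myeloid neoplasms, had 31.2, 37.2 and 39.6 FPKM against 23.6, 22.7 and 22.4 FPKM (log2 -0.41, SE 0.14, adjusted p = 0.0275). It did not pass with a replicate block (edgeR adjusted p = 0.0529). Nor did it pass without SSCs replicate 2 or without any 1 iNSC library (edgeR adjusted p = 0.0727 to 0.11). Sf3b2 (log2 -0.70) and Sf3b4 (log2 -0.55) lay between Sf3b3 and Sf3b1. The small subunits Sf3b6 and Sf3b5 stayed near 0, at log2 0.03 and 0.05. Sf3b5 had 22.3, 17.5 and 21.3 FPKM in SSCs and 16.5, 16.2 and 20.1 FPKM in iNSCs, with overlapping groups, and its sign turned with library totals (-0.21). The ratio of Sf3a3 to Sf3b1 was 2.75, 2.17 and 2.38 in SSCs and 0.980, 0.992 and 0.990 in iNSCs. This pair and the other ratios were picked after the values were seen, and their exact permutation p could not go below 0.1.

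U2AF differed by subunit. U2af2, the large subunit that binds the polypyrimidine tract, had 91.1, 95 and 108 FPKM in SSCs and 61.6, 58.6 and 63.2 FPKM in iNSCs (log2 -0.43, SE 0.12, adjusted p = 0.0142). U2af1, the small subunit that reads the AG, had 24.6, 23.5 and 29.7 FPKM against 11.2, 11.4 and 12.7 FPKM (log2 -0.89, SE 0.15, adjusted p = 0.00101). It passed the size threshold with library totals (-1.14) but not with TMM. U2af1l4, a shorter paralog of the small subunit known as U2AF26, had 4.02, 5.72 and 5.55 FPKM against 0.930, 1.61 and 1.11 FPKM and fell (log2 -1.82, SE 0.30, adjusted p = 0.00102). Its groups did not overlap, but its levels were low and 65.6% of its exonic bases also belong to Gm49396 on the same strand.

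The Sm proteins form a ring of 7 around the U1, U2, U4 and U5 RNAs. Their mRNAs did not move by 1 common factor. Snrpb, for the B protein and the most abundant member of the ring (ENSMUSG00000027404, chromosome 2, 130171414 to 130179403, minus strand), had 271, 259 and 316 FPKM in SSCs and 111, 102 and 106 FPKM in iNSCs (log2 -1.16, SE 0.13, adjusted p = 1.5e-04). Snrpf had 212, 175 and 220 FPKM against 65.4, 62.5 and 69.1 FPKM (log2 -1.37, SE 0.13). Its exons overlap Ccdc38 on the other strand by 65.9%, and all opposite-strand genes by 85.4%. Ccdc38 held 3 to 26 counts per library, but the strand setting of the counts is not stated. Snrpg had 13.2, 12 and 10.5 FPKM against 2.92, 2.58 and 3.44 FPKM (log2 -1.74, SE 0.18), and -1.32 once the counts of its copies were added. Snrpe had 26.0, 19.6 and 22.8 FPKM against 9.95, 9.26 and 8.71 FPKM. It fell only just (log2 -1.04, SE 0.15, adjusted p = 4.8e-04) and was short of the threshold with SSCs replicate 1 (-0.96), iNSCs replicate 2 (-0.99) or iNSCs replicate 3 (-0.97) left out in turn, and with the counts of its copy Snrpert added (-0.94).

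None of the 3 D proteins reached the size threshold. Snrpd2 (log2 -0.97, SE 0.12) and Snrpd3 (log2 -0.61, SE 0.11) were lower by the adjusted p alone, and Snrpd2 was called without SSCs replicate 2 (-1.02) or SSCs replicate 3 (-1.06). Snrpd1 had 33.6, 26.8 and 30.3 FPKM in SSCs and 25.2, 21.7 and 23.2 FPKM in iNSCs, close together but without overlap. It did not pass with TMM (log2 -0.12, SE 0.12, adjusted p = 0.398). By the adjusted p alone it was lower with library totals (log2 -0.37, edgeR adjusted p = 0.0262) and with limma (log2 -0.35, adjusted p = 0.0219). Within the summed FPKM of the ring, Snrpd1 made up 4.42% to 5.05% in SSCs and 8.97% to 9.65% in iNSCs, and Snrpf 30.1% to 32.1% and 25.0% to 27.2%, whereas the share of Snrpb overlapped (40.7% to 46.2% and 41.8% to 42.5%). Shares within a ring need no scaling between libraries, but comparing genes rests on the exonic lengths of the table.

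The tri-snRNP held the largest fall of all members. Prpf3 (ENSMUSG00000015748, chromosome 3, 95830124 to 95855885, minus strand), a U4/U6 protein, had 22.1, 22.7 and 25.5 FPKM in SSCs and 4.18, 4.58 and 4.31 FPKM in iNSCs (log2 -2.18, SE 0.12, adjusted p = 7.5e-06). Its binding partner Prpf4 had 15.2, 15 and 16.3 FPKM against 6.00, 5.40 and 5.52 FPKM (log2 -1.21, SE 0.11, adjusted p = 5.7e-05). Both sets of libraries stood far apart. Prpf31, the third U4/U6 protein and, like Prpf3, Prpf6 and Prpf8, a gene of inherited retinal degeneration in humans, went the other way: 13.4, 12.2 and 12.8 FPKM in SSCs and 14.6, 14 and 14.5 FPKM in iNSCs (log2 0.42, SE 0.09, adjusted p = 0.00417, under the size threshold). With library totals the difference was 0.17 (adjusted p = 0.125), and with limma 0.16 (adjusted p = 0.11). The ratio of Prpf3 to Prpf31 was 1.65, 1.86 and 1.99 in SSCs and 0.286, 0.327 and 0.297 in iNSCs. In Prpf31, 18.1% of the exonic bases overlap Gm15927 on the other strand, which held 6 to 41 counts per library.

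Of the other Prpf genes, Prpf8, the U5 protein at the catalytic centre, had 70.5, 97.9 and 93.1 FPKM in SSCs and 55.2, 56.1 and 58.1 FPKM in iNSCs. The FPKM groups did not overlap, but SSCs replicate 1 lay low and the difference did not pass (log2 -0.38, SE 0.16, adjusted p = 0.0637). With library totals it passed the adjusted p (log2 -0.63, edgeR adjusted p = 0.00466). Prpf6, which bridges U5 and U4/U6 (log2 -0.68, SE 0.09), and Prpf19, the ubiquitin ligase of the activated spliceosome, with 48.5, 50.9 and 55.1 FPKM against 29.8, 28.5 and 29.1 FPKM (log2 -0.57, SE 0.11), were lower by the adjusted p alone. So were Prpf38a (log2 -0.98), Prpf38b (log2 -0.78) and the step 2 factor Prpf18 (log2 -0.49). The kinase gene Prpf4b did not pass (log2 0.23, adjusted p = 0.263), and its difference was 0.08 without SSCs replicate 1, 0.40 without SSCs replicate 3 and -0.02 with library totals.

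**Figure D3:**
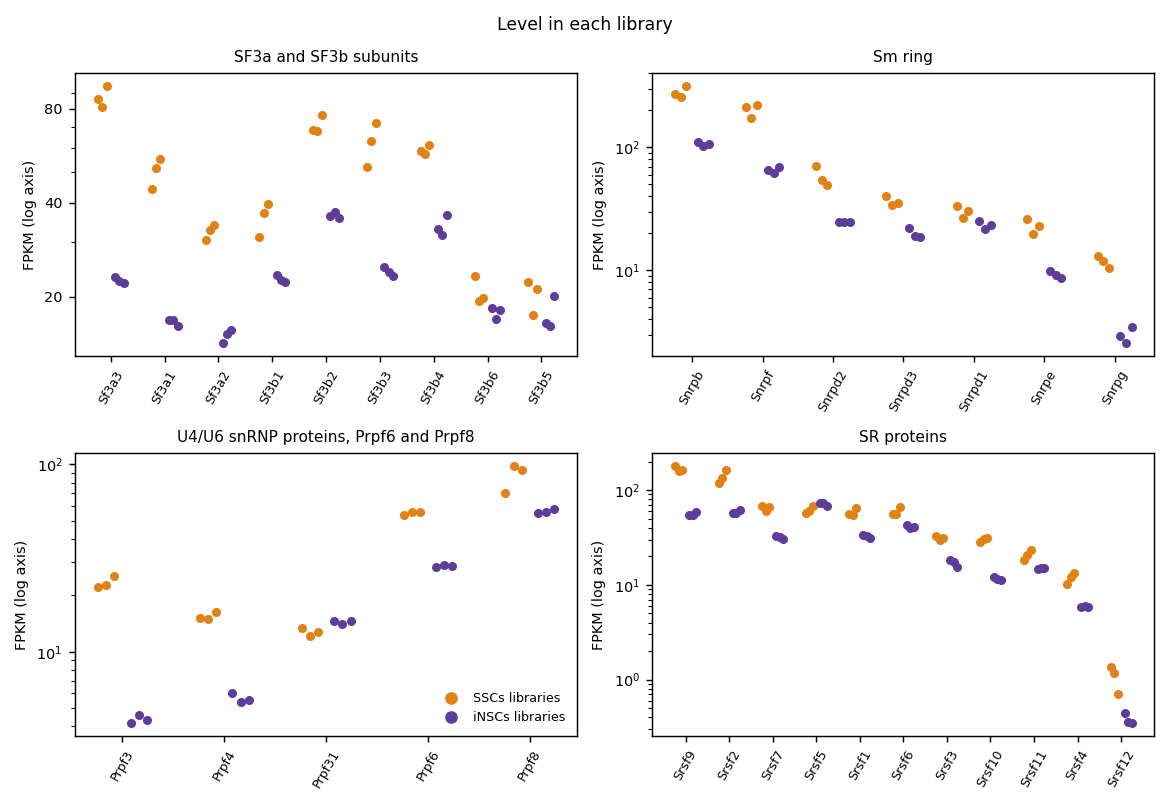
FPKM on a log axis (vertical) of single genes (horizontal) in each of the 3 SSC libraries (orange) and 3 iNSC libraries (purple), in panels for SF3, the Sm ring, tri-snRNP proteins and SR proteins. Sf3a3, Prpf3 and Snrpf separate widely, while Sf3b5, Snrpd1 and Srsf5 lie close together, and Prpf31 and Srsf5 are higher in iNSCs.

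Among the SR proteins 3 of 11 fell, or 27.3%, which is near the 27.6% of all tested genes. Srsf9, the most abundant of them in SSCs, had 179, 158 and 162 FPKM in SSCs and 55.2, 54.5 and 59.4 FPKM in iNSCs (log2 -1.31, SE 0.10, adjusted p = 2.3e-05). Srsf10, an SR protein that turns into a general repressor when dephosphorylated, had 28.3, 30.1 and 31.5 FPKM against 12, 11.5 and 11.4 FPKM (log2 -1.11, SE 0.11). Srsf12, its paralog, fell at a low level, from 1.36, 1.18 and 0.710 FPKM to 0.440, 0.360 and 0.350 FPKM (log2 -1.24, SE 0.31, adjusted p = 0.00817). The lowest SSC library, replicate 3, was still above every iNSC library.

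Srsf2, the factor also called SC35 that marks nuclear speckles, stood at the threshold: 120, 135 and 162 FPKM in SSCs and 57.2, 57.4 and 61.3 FPKM in iNSCs (log2 -0.9994, SE 0.15, adjusted p = 7.4e-04). It was called with library totals (-1.25) and without SSCs replicate 1 (-1.12). Mettl23 and Mfsd11 on the other strand share 25.3% of its exonic bases. Srsf1, the first SR protein described, had 56.5, 54.2 and 64.0 FPKM against 34.0, 32.8 and 30.9 FPKM (log2 -0.59, SE 0.12), and Srsf3, the smallest SR protein, 33.0, 29.5 and 31.2 FPKM against 18.1, 17.4 and 15.4 FPKM (log2 -0.63, SE 0.10). Srsf7 and Srsf4, both at log2 -0.78, were likewise lower by the adjusted p alone. Srsf6 (log2 -0.28, adjusted p = 0.0789) and Srsf11 (log2 -0.22, adjusted p = 0.176) did not pass.

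Srsf5 was the only SR gene with a positive difference. It had 56.8, 60.5 and 68.0 FPKM in SSCs and 72.7, 72.4 and 68.4 FPKM in iNSCs, so that the highest SSC library and the lowest iNSC library nearly met. The difference passed the adjusted p but not the size threshold (log2 0.45, SE 0.12, adjusted p = 0.0111). With library totals it was 0.20 (adjusted p = 0.106). Srsf9 was 3.15, 2.62 and 2.38 times as high as Srsf5 in SSCs and 0.760, 0.753 and 0.869 times in iNSCs, so the order of the 2 genes turned.

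Of the 20 hnRNP genes 2 fell and 1 rose, beside 27.6% and 25.7% of all tested genes, and 14 were lower by the adjusted p alone, beside 38.3%. Hnrnpdl, a protein related to the AU-rich element binder Hnrnpd, had 66.5, 61.7 and 71.0 FPKM in SSCs and 24.0, 23.1 and 21.4 FPKM in iNSCs (log2 -1.29, SE 0.11, adjusted p = 4.4e-05). Hnrnph3, of the G-run binding H family, had 28.3, 27.4 and 29.2 FPKM against 10.8, 10.0 and 10.2 FPKM (log2 -1.20, SE 0.10, adjusted p = 4.0e-05). Both were narrow within each group. In the same family Hnrnpf (log2 -0.97, SE 0.16) and Hnrnph2 (log2 -0.90, SE 0.10) were lower by the adjusted p alone, while Hnrnph1, at 48.4 to 52.7 FPKM and 42.3 to 48.6 FPKM, had overlapping groups (log2 0.11, adjusted p = 0.401).

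The core hnRNP proteins that coat nascent transcripts were lower by smaller amounts. Hnrnpa2b1, also a proposed nuclear m6A reader, had 142, 128 and 146 FPKM in SSCs and 90.6, 84.7 and 79.2 FPKM in iNSCs (log2 -0.46, SE 0.12, adjusted p = 0.00841). It just missed the adjusted p without iNSCs replicate 2 (edgeR adjusted p = 0.0513) or iNSCs replicate 3 (edgeR adjusted p = 0.0609). Hnrnpc, which binds uridine tracts, had 65.9, 58.2 and 61.8 FPKM against 37.7, 36.8 and 35.9 FPKM (log2 -0.50, SE 0.09), and the nuclear scaffold gene Hnrnpu 89.9, 93.5 and 103 FPKM against 47.9, 48.9 and 46.6 FPKM (log2 -0.75, SE 0.12). In each of these, every iNSC library was below every SSC library. Hnrnpab, the most abundant member of all, had 306, 285 and 320 FPKM against 216, 217 and 223 FPKM, and did not pass once TMM scaling was applied (log2 -0.22, SE 0.11, adjusted p = 0.104). Hnrnpk, a poly-C binder, had 71.5, 71.8 and 85.2 FPKM against 55.4, 54.2 and 51.5 FPKM. With library totals it passed the adjusted p (log2 -0.50, edgeR adjusted p = 0.00388), but with TMM it did not pass either (log2 -0.25, adjusted p = 0.105). Nor did Hnrnpll, a regulator of Ptprc exons in lymphocytes, with 7.39, 6.83 and 7.79 FPKM against 7.45, 6.92 and 7.52 FPKM (log2 0.24, adjusted p = 0.0726, and -0.01 with library totals).

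Hnrnpa3, a paralog of Hnrnpa1, was the single member that rose, with 3.52, 3.83 and 4.02 FPKM in SSCs and 7.27, 7.41 and 6.47 FPKM in iNSCs (log2 1.14, SE 0.13, adjusted p = 1.9e-04). The call held with each library left out (log2 1.07 to 1.23) but was lost in 3 settings: the difference was 0.89 with library totals, 0.75 with limma on log2(FPKM + 1) and 0.31 (adjusted p = 0.0336) once the counts of the near-identical copies were added. Its 27 copies held 9545 counts in SSCs and 9332 in iNSCs, against 1147 and 2221 for Hnrnpa3 itself. Gene and copies summed to 3707, 3207 and 3778 counts in SSCs and 3939, 3878 and 3736 counts in iNSCs. These are raw counts without scaling for library size, so overlap between the groups cannot be read from them. Hnrnpa1, the best known exon silencer of the family, had 60.1, 50.9 and 56.9 FPKM against 32.8, 29.7 and 27.7 FPKM (log2 -0.64, SE 0.11), and -0.74 with the counts of its 9 copies.

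In all, 22 of 68 members had at least 1 copy at another locus with 95% identity over 200 or more coding bases, or over 80% of a shorter coding sequence. For 7 of them (Hnrnpa1, Hnrnpa3, Hnrnpk, Snrpg, Snrpe, Snrpert and U2af1) the copies held at least 10% of the member's own counts. With copies added, 18 members fell, 17 of them among the 18 above, with Srsf2 in and Snrpe out. The log2 difference of U2af1 was -0.89 with its copies too. Apart from copies, 8 members shared at least 10% of exonic bases with opposite-strand genes, among them Srsf4 (43.0%), Hnrnpab (29.1%) and Hnrnpf (26.5%).

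**Figure D4:**
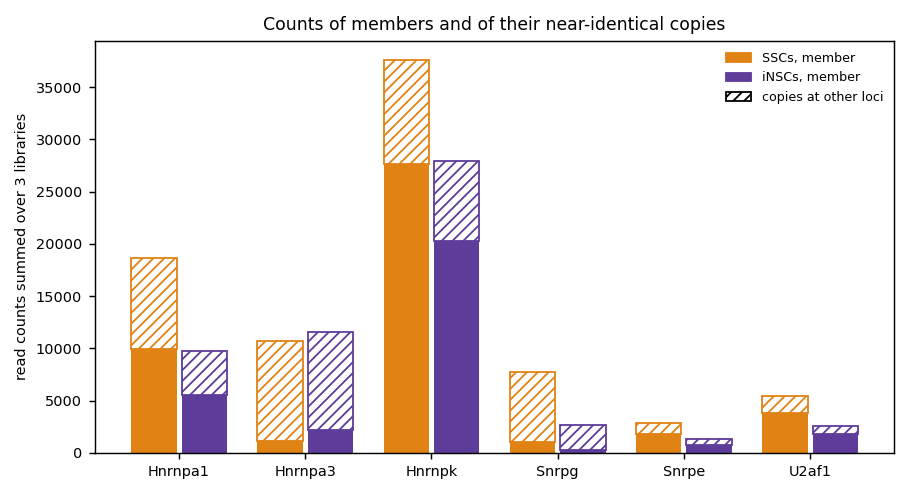
Read counts summed over 3 libraries (vertical axis, linear from 0) for 6 members (horizontal axis) in SSCs (orange) and iNSCs (purple), with solid bars for the member and hatched bars for its near-identical copies at other loci. For Hnrnpa3 and Snrpg the copies hold most counts, and the Hnrnpa3 totals of both groups are close.

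Promoters of 3 genes that fell are given, picked because all hold the core of the ETS factor site. Their match was thus fixed in advance. The windows hold 300 bases around a RefSeq start site, most of them upstream (GRCm38.p6), and are printed 5′ to 3′ on the gene's strand. Capitals mark the motifs searched on both strands: CACGTG for the E-box, CCAAT for the box of that name, GGGCGG for the GC box, CCGGAAG for the ETS core and TATAAA for the TATA box, none of which contains another. Sf3a3 lies at chr4:124714611-124714910 (plus), Sf3a1 at chr11:4160104-4160403 (plus) and Prpf3 at chr3:95855704-95856003 (minus).
Sf3a3: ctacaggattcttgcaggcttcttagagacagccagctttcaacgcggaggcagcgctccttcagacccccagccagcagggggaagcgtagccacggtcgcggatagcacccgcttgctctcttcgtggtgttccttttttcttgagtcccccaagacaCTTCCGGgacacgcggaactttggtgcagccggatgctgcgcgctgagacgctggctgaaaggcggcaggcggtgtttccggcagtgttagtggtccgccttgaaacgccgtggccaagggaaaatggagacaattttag
Sf3a1: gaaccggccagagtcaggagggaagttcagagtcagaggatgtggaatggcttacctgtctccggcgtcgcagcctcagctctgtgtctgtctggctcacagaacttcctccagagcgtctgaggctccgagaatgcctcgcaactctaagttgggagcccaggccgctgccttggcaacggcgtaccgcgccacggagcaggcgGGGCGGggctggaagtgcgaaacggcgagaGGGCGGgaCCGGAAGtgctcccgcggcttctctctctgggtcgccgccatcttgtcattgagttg
Prpf3: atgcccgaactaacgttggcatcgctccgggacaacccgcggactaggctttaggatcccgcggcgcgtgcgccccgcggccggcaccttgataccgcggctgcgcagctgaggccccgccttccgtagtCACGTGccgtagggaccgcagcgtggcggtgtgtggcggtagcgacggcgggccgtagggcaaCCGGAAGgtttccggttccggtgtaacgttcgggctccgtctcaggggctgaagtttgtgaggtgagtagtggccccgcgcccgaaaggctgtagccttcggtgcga
Prpf3 has a second window without the ETS core. Windows were found for 58 members (76 windows). The ETS core was in 32.9% of them, beside 8.86% of all 32851 windows and 19.3% of those of tested genes with at least 10 FPKM. The GC box was in 67.1%, beside 35.7% and 67.0%, CCAAT in 48.7%, beside 37.4% and 37.7%, the E-box in 14.5%, beside 7.15% and 11.5%, and TATAAA in 7.89%, beside 13.6% and 6.84%. Of the 19 windows of members that fell, 36.8% held the ETS core and 42.1% the GC box. Members that did not fall hold the ETS core too, among them Srsf5 (log2 0.45), Snrpb2 (log2 0.11) and Sf3b6 (log2 0.03). A match is a run of letters, and binding was not measured.

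Other genes of the splicing machinery were counted in the same way, beside the 27.6% of all tested genes that fell and the 25.7% that rose. Of 24 further snRNP proteins, 11 fell (median log2 -0.94), among them the U6 ring genes Lsm5 (log2 -1.96) and Lsm8 (log2 -1.83). Of 22 helicases and Prp19-associated proteins, 12 fell (median -1.03), led by Cdc5l, a partner of Prpf19 with 69.1, 73.2 and 75.8 FPKM in SSCs and 17.7, 17.5 and 17.6 FPKM in iNSCs (log2 -1.80, SE 0.10). Of 9 exon junction complex genes, 6 fell (median -1.23), most of all Rnps1 (log2 -2.18). Of 10 proteins of the minor spliceosome 4 fell (median -0.85), with Pdcd7 at log2 -2.51. Of 16 genes that load Sm proteins onto snRNA 6 fell (median -0.66), led by the SMN complex genes Ddx20 (log2 -2.58) and Gemin5 (log2 -2.07). In these 5 lists 0 of 81 genes rose by edgeR, 2 had a positive difference at an unadjusted p under 0.05, and 0 rose by DESeq2 or by limma on log2(FPKM + 1). The same counts for the 48 members outside the Hnrnp family were 0, 2, 0 and 0.

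The kinases that phosphorylate SR proteins moved less. Srpk1 had 15.6, 15.3 and 15.4 FPKM in SSCs and 6.92, 6.76 and 6.51 FPKM in iNSCs, wholly separate, and was just under the size threshold (log2 -0.94, SE 0.09, edgeR adjusted p = 7.1e-05). Of the 7 kinases 1 rose, Srpk3 (mean 0.0267 FPKM in SSCs and 0.227 FPKM in iNSCs), and 0 fell by edgeR or DESeq2, with 3 lower at an unadjusted p under 0.05 and 2 called lower by limma. Of 12 tested SR-related proteins, 1 rose, Srrm4, and 2 fell, Scaf8 (log2 -1.45) and Scaf11 (log2 -1.12). The 16 proliferation genes summed to 984 to 1250 FPKM in SSCs and 315 to 341 FPKM in iNSCs, and 11 of them fell (median -1.68). Their part in the lower splicing factor levels was not tested.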

How the data were processed

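Messenger RNA of 3 SSC and 3 iNSC libraries was measured with a stranded polyA kit, per the labels' protocols. The authors deposited 1 table of whole-number read counts and FPKM values. FPKM recomputed from the deposited counts, exonic lengths and column totals matched in 100% of values within 0.0051. HISAT2, DESeq2 and mm9 are named in the submitters' processing notes. The counting tool, its strand setting and its handling of reads that match several places are not stated in the sources used here. Coordinates of 67 of 68 members equalled those of GENCODE M21 (GRCm38), so that build is used. The 68 members, their lists and the rule for named genes were chosen with earlier results of these data known. The rule names up to 14 called members a direction, the largest rise, largest fall and highest level of each family, and a set list.

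Counts were tested with edgeR 4.0.16 (R 4.3.3; TMM; minimum count 10, total 15; quasi-likelihood, two-sided; Benjamini-Hochberg over all 17387 genes). The procedure was run on simulated counts in which far fewer genes changed than here. That run does not test the scaling where many genes differ. Alternatives were library totals, median-of-ratios scaling, DESeq2 1.42.0, no filter, limma 3.58.1 on log2(FPKM + 1) for genes with 1 FPKM in 3 libraries, a replicate block, each library left out and, chosen after seeing the data, added counts of copies (blastn 2.17.0). Means are given ± SD of FPKM over 3 libraries. At this depth 3 counts are 0.149 to 0.166 CPM, or scaled counts. Of 1 listed gene, Ddx39a, no row was found under that symbol. Values of 1 member are not reported here, though it is in all counts over members.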

Additional observations from a re-analysis of the deposited data

How the results depend on the processing

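The count of members that fell (18) was 17 to 22 when 1 library was left out, 27 with limma on log2(FPKM + 1), 30 with library totals and 50 by the adjusted p alone. The 18 genes were all among the 30. The 1 riser, Hnrnpa3, was lost with library totals, limma and added copies (0 each, with 1, 1 and 3 members higher at an unadjusted p under 0.05). DESeq2, run only on the deposited counts without added copies and with its own scaling, called 1 riser. In the main fit 3 members were higher by the adjusted p alone. The member median of -0.68 was -0.93 with library totals, -0.89 with limma and -0.74 to -0.64 with a library left out. The difference in FPKM share, -0.64 percentage points, was -0.689 to -0.579 with a library left out and -0.75 as a share of counts. Among the 39 members named by the rule, signs turned for 3 uncalled ones. Hnrnpll was -0.01 with library totals and with limma. Sf3b5 was -0.21 with library totals, -0.20 with limma, -0.05 without SSCs replicate 2 and -0.04 without iNSCs replicate 3. It reached 0.14 with another library left out. Snrpb2 was -0.15 with library totals, -0.12 with limma and -0.02 without SSCs replicate 2. It reached 0.18 with another left out. Members outside that rule turned as well, among them Hnrnph1 (0.11 to -0.14), Sf3b6 (0.03 to -0.23) and Prpf4b (0.23 to -0.02) with library totals. The cause was not tested. Of 506 values of the members named by the rule over 13 settings, 480 kept direction and side of the threshold, 8 lost a call, 9 gained one and 9 turned. With a replicate block 18 members fell, 1 rose and the median was -0.68. Deviations of same-numbered libraries correlated at 0.091, 0.05 and -0.015. These values gave no sign of pairing but cannot exclude it, since the labels do not name the cultures. Depth limits Srsf12 and U2af1l4 most, at 22 and 29 counts in their lowest library.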

Other observations

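Regulators of alternative exons with tissue-restricted use were counted too: of 36 tested, 8 rose and 15 fell (median log2 -0.34), beside 25.7% and 27.6% of all tested genes. Esrp2, which directs epithelial exons, had 1.69, 1.30 and 0.950 FPKM in SSCs and 9.95, 11.8 and 13.4 FPKM in iNSCs (log2 3.42, SE 0.22, edgeR adjusted p = 1.3e-05). Its paralog Esrp1 went the other way, with 15.3, 20.3 and 32.1 FPKM against 9.38, 10.9 and 10.6 FPKM (log2 -0.90, SE 0.28, edgeR adjusted p = 0.0208, and -0.53 without SSCs replicate 3), short of the size threshold. Rbm47 rose, with means of 0.747 FPKM in SSCs and 12.2 FPKM in iNSCs (log2 4.29, SE 0.16). Among RNA-binding proteins known from neurons, Elavl2 fell, with means of 7.26 and 0.113 FPKM (log2 -5.76), and so did Nova1, with means of 0.297 and 0.100 FPKM (log2 -1.28). Srrm4, an activator of neuronal microexons, rose from 0.197 to 0.683 FPKM (log2 2.05, means, a low level in both groups). Ptbp2, a brake on neuronal exons, fell from 5.76 to 2.25 FPKM (log2 -1.11, means, and -0.94 without SSCs replicate 3), whereas Ptbp1, with 111, 130 and 158 FPKM in SSCs and 92.0, 90.1 and 93.1 FPKM in iNSCs, did not pass (log2 -0.29, adjusted p = 0.143). Rbfox2 had overlapping groups (log2 0.19).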
